A study of Homo sapiens with 6 samples.

Results

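The baseline transcriptome of A549 cells was described from the si-ctrl libraries. A549 is a human lung adenocarcinoma line, and the cells had been transfected with a control siRNA by lipofection and harvested 48 h later. There were 2 si-ctrl libraries among the 6 libraries of the series, and the remaining 4 carried siRNAs against PLANE, a long noncoding RNA, and were not used here. Transcript values were summed for each gene identifier, which gave 34957 genes from 180253 listed transcripts, and genes were ranked by the mean FPKM of both libraries. FPKM is the number of fragments divided by the effective length of the transcript and by the size of the library. The labels do not say whether the replicates came from separate cultures. Since both libraries belong to 1 group, no test was made and each level is given for replicate 1 and then for replicate 2.

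A549 cells are widely used as a model of the lung epithelium and derive from a tumour with features of the alveolar type 2 cell, the surfactant-producing cell of the air sac. Epithelial cells are held together by junctions built on E-cadherin, claudins and desmosomes, and simple epithelia are braced by the paired keratins KRT8 and KRT18. The transcription factor NRF2, encoded by NFE2L2, switches on enzymes that make glutathione, reduce thioredoxin, supply NADPH and clear reactive carbonyls. KEAP1 hands NRF2 to a CUL3 ubiquitin ligase for degradation, and KEAP1 is among the genes often mutated in lung adenocarcinoma.

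The libraries held 13643800 and 14267231 expected counts. The 2 libraries were close for most genes, with a median absolute log2 ratio of 0.23 over the 13223 genes at 1 FPKM or more, and 635 of these genes (4.8%) were over 2-fold apart. Among the 10529 of these genes with a mean of 100 counts or more, a selection made after the values were seen, 165 were over 2-fold apart, of which 111 were higher in replicate 1. The genes furthest apart in this selection were interferon-induced genes. IFI27 stood at 160.8 FPKM in replicate 1 and 0.88 FPKM in replicate 2. ISG15, a ubiquitin-like protein made in antiviral responses, stood at 124.7 and 1.22 FPKM, and IFI6 at 426.2 and 8.83 FPKM. OAS2, which senses double-stranded RNA, stood at 35.66 and 0.27 FPKM, and MX1 at 21.91 and 0.29 FPKM. B2M, the light chain of MHC class I, stood at 2818 and 917 FPKM. The cause of this difference was not tested. Of the 10 genes furthest apart among all genes at 5 FPKM or more, 8 had no more than 7 counts in either library, and the other two were IFI27 and a processed pseudogene.

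**Figure D1:**
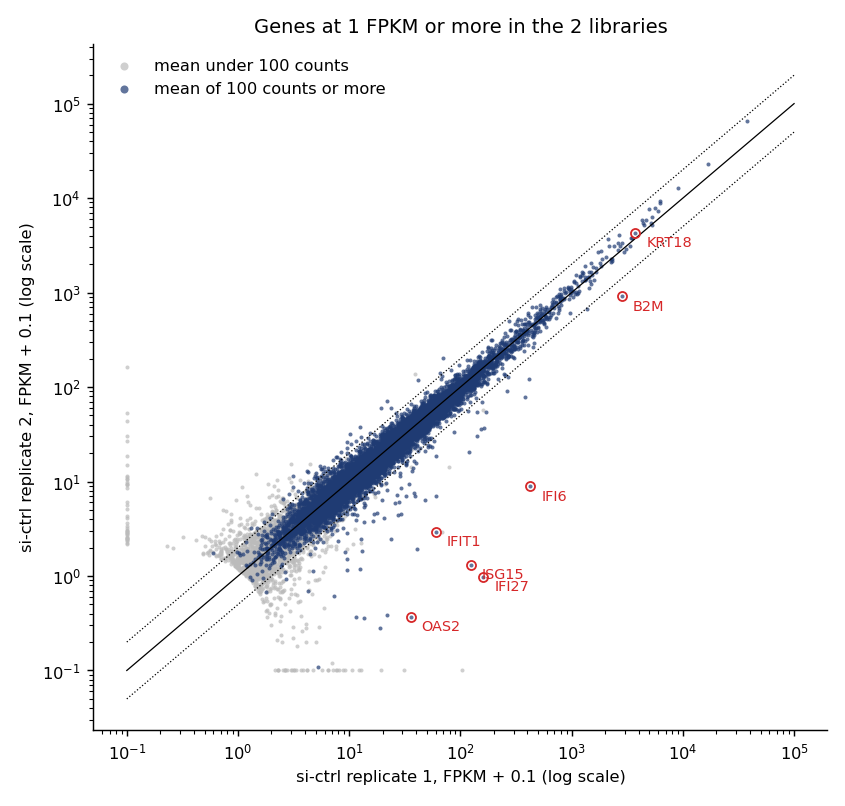
Level of each gene at 1 FPKM or more in si-ctrl replicate 1 (x axis) and replicate 2 (y axis), as FPKM + 0.1 on log scales, with equality as a solid line and 2-fold differences as dotted lines. Most genes lie between the dotted lines, and the circled genes IFI27, IFI6, ISG15, OAS2 and IFIT1 lie far below them, with IFI6 at 426.2 and 8.83 FPKM. Also circled are B2M, at 2818 and 917 FPKM, which lies nearer to the lower line, and KRT18, at 3735 and 4281 FPKM, which lies between the lines.

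Expression was concentrated in few genes. Of 34957 genes, 13223 reached a mean of 1 FPKM (37.8%), 7902 reached 10 FPKM, 968 reached 100 FPKM (2.77%) and 83 reached 1000 FPKM, while 16418 were listed at 0 in both libraries (47%). Of the 19240 protein-coding genes, 12145 reached 1 FPKM (63.1%). The 10 most abundant genes held 14.8% and 20.2% of the summed FPKM of the genes, and the 100 most abundant held 36.9% and 42.8%. By expected counts, which are not divided by length, the 100 leading genes held 21.3% and 23.9%.

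The mitochondrially encoded genes headed the ranking. All 13 were above 100 FPKM, a level that 4.88% of protein-coding genes reached. They held 14.7% and 19.7% of the FPKM but 5.36% and 7.09% of the counts. MT-CO1, a subunit of cytochrome c oxidase, stood at 16885 and 23216 FPKM from 297344 and 427170 counts. MT-ATP8, a small subunit of ATP synthase, was first at 37805 and 65267 FPKM although it had only 3724 and 6999 counts. Its transcript is 207 bases long, and the effective length by which the authors' values divide its counts was 7.22 and 7.52 bases, so its rank of 1 by FPKM, against 329 by counts, depends on that divisor. The cytoplasmic ribosomal proteins followed, with 84 of 86 genes at 1 FPKM or more (97.7%), where 63.1% of protein-coding genes were. They held 9.74% and 10.3% of the FPKM but 3.26% and 3.87% of the counts. RPL13A, a protein of the large ribosomal subunit, was the highest of them at 4946 and 7699 FPKM.

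Outside these families and the histones, GAPDH, the glycolytic glyceraldehyde phosphate dehydrogenase, was the most abundant gene by the gene sums at 5305 and 6234 FPKM. The ferritin chains FTL and FTH1, which store iron, stood at 4265 and 5878 FPKM and at 4427 and 5171 FPKM. The cytoskeleton was represented by ACTG1 at 4386 and 5444 FPKM, ACTB at 3074 and 2910 FPKM and TMSB10, which binds actin monomers, at 2315 and 2272 FPKM. ANXA2, a membrane-binding annexin, stood at 2734 and 3137 FPKM, and EEF1A1, which brings aminoacyl-tRNA to the ribosome, at 2408 and 3104 FPKM. PPIA and P4HB, which assist protein folding, stood at 2270 and 2292 FPKM and at 1466 and 1320 FPKM. PABPC1, which binds poly(A) tails, stood at 1724 and 2695 FPKM. TPT1 stood at 1663 and 1804 FPKM and the ubiquitin gene UBB at 1440 and 1645 FPKM. Short transcripts gave much of the FPKM of some of these genes. In P4HB, a transcript of 353 bases held 57.6% of the FPKM but 10.9% of the counts. P4HB-201, of 2603 bases, held 59.6% of the counts and stood at 218 and 166 FPKM. In UBB, a transcript of 477 bases held 65.2% of the FPKM and 32.8% of the counts. In ACTG1, one of 471 bases held 75.9% and 29.9%. CYP24A1, the enzyme that inactivates vitamin D hormone, stood at 1226 and 1655 FPKM. Among the 30 leading genes of this kind, 5 were processed pseudogenes, headed by RPL41P1 at 4696 and 5898 FPKM, which may share reads with near-identical parent genes and are therefore uncertain. CPLX2, a complexin that acts in vesicle release, was named after its level was seen and stood at 1144 and 988 FPKM at rank 71.

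**Figure D2:**
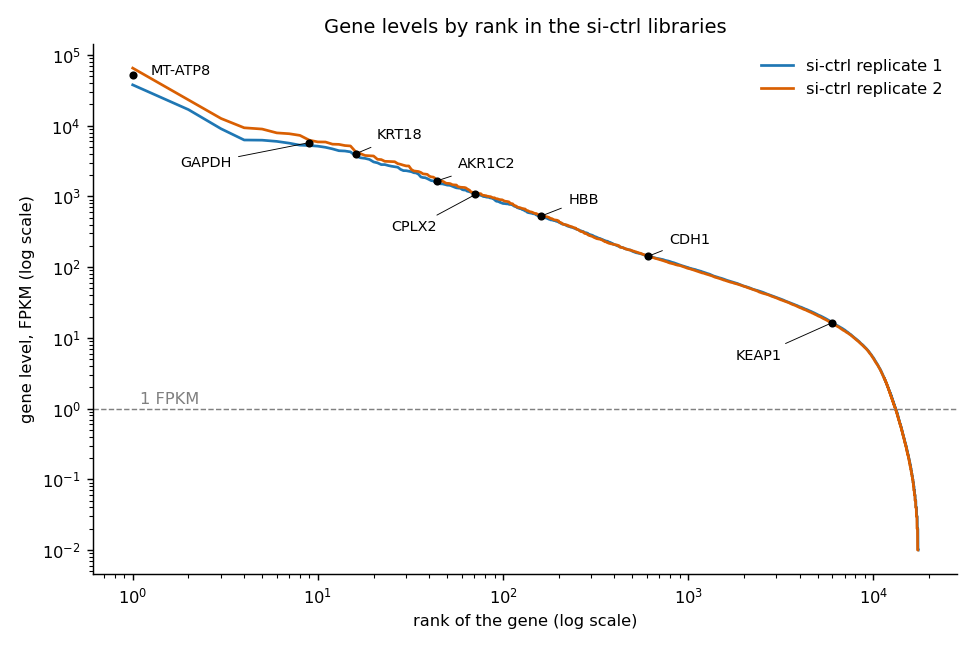
Gene level in FPKM (y axis, log scale) against the rank of the gene (x axis, log scale), with 1 line for each si-ctrl library and points for the mean of named genes. The curves nearly coincide below the leading genes, fall past 1 FPKM after about the first 13223 genes, and lie apart at the top, where MT-ATP8 stood at 37805 and 65267 FPKM.

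The 4 marker genes of A549 cells ranked among the 50 most abundant genes of the libraries. They were chosen with earlier results of these data known, so their high rank is a description only. KRT18 (ENSG00000111057, hg19 chromosome 12, 53342655 to 53346690) stood at 3735 and 4281 FPKM and ranked 16. KRT8 (ENSG00000170421, chromosome 12, 53290971 to 53343738) stood at 3332 and 3093 FPKM and ranked 20. The 2 keratin genes are neighbours on opposite strands, and both had between 58816 and 72145 counts. ALDH1A1 (ENSG00000165092, chromosome 9, 75515587 to 75695358), which oxidises retinaldehyde to retinoic acid, stood at 2981 and 2699 FPKM and ranked 26 by FPKM but 4 by counts. AKR1C2 (ENSG00000151632, chromosome 10, 5029967 to 5060223), an aldo-keto reductase that acts on steroids, stood at 1670 and 1649 FPKM and ranked 44. Its paralogs AKR1C1 and AKR1C3 are close in sequence, so the division of reads among the 3 genes is uncertain. None of the 4 markers was over 2-fold apart between the libraries.

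RefSeq promoter windows of the markers and of 3 NRF2 targets, PGD, GPX2 and TXNRD1, are shown. The 3 targets were chosen because they are abundant and hold the motif described below. Only the first listed window of each gene was used, and it need not lie at the start of the transcripts that carry the level. Each window runs from 250 bases before to 50 bases after the RefSeq gene start in the GRCh38.p14 build. Letters read 5′ to 3′ on the strand of the gene, and KRT18 had no entry. Capitals mark the core of the antioxidant response element, the motif bound by NRF2 with a small MAF protein, searched on both strands as TGACNNNGC.
KRT8 (chr12:52926420-52926719, minus strand): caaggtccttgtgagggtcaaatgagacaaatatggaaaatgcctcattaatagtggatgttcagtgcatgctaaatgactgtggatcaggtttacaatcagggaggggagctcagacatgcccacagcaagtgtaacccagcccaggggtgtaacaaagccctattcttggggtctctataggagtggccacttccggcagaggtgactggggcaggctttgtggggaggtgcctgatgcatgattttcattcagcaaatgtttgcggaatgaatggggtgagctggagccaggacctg
ALDH1A1 (chr9:72953004-72953303, minus strand): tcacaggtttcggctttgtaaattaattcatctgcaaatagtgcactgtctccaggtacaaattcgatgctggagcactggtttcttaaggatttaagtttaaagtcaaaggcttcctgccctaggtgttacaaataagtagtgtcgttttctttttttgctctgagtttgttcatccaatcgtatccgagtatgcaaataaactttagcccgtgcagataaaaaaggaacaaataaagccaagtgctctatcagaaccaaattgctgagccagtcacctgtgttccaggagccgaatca
AKR1C2 (chr10:5003808-5004107, minus strand): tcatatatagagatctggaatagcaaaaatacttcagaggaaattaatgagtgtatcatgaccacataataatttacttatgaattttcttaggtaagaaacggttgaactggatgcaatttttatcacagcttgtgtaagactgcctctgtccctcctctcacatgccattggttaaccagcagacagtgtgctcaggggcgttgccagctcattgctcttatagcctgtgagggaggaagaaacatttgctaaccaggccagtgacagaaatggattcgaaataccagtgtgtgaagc
PGD (chr1:10398814-10399113, plus strand): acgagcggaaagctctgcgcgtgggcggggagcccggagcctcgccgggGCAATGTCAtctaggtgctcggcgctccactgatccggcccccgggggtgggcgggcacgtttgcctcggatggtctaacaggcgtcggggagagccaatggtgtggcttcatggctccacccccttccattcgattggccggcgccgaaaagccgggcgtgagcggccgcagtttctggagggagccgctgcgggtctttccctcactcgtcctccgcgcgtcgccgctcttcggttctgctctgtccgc
GPX2 (chr14:64942696-64942995, minus strand): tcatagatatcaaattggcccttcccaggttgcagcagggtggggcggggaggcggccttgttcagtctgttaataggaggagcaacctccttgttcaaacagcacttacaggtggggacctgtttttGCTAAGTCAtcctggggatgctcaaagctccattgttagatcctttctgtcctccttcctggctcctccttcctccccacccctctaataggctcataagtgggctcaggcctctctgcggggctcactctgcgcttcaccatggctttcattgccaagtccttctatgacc
TXNRD1 (chr12:104215529-104215828, plus strand): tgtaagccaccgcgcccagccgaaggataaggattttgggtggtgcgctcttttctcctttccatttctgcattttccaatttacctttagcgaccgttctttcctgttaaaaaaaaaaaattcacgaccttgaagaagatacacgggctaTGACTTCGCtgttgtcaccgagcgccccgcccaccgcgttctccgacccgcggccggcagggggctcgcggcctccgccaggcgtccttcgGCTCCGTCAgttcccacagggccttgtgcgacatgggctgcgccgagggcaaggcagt

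The core was found in 3692 of 27195 promoter windows (13.6%). PGD held it at position -201 on the opposite strand (TGACATTGC), GPX2 at position -122 on the opposite strand (TGACTTAGC), and TXNRD1 at position -99 (TGACTTCGC) and, on the opposite strand, at position -8 (TGACGGAGC), with positions counted from the gene start to the leftmost letter shown. The windows of KRT8, ALDH1A1 and AKR1C2 held no match to these letters. Other start sites of the genes shown were not searched. A match or its absence thus describes the window alone, and whether that window gives the level was not tested. Of 47 NRF2 targets, 34 had a window (72.3%), which is under the 80% required for a comparison of the list with all promoters, and 10 of the 34 held the core.

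NRF2 targets were expressed at high levels almost throughout. Of 47 measured targets, 46 reached 1 FPKM (97.9%), where 63.1% of protein-coding genes did, and 31 reached 100 FPKM, where 4.88% of protein-coding genes did. The median over the targets was 224 and 179 FPKM, against a median of 5.29 FPKM over protein-coding genes. Together they held 3.49% and 3.47% of the FPKM but 2.6% and 2.73% of the counts. The 4 iron and heme genes alone, mostly FTL and FTH1, held 1.21% and 1.41% of the FPKM. CES1, a liver carboxylesterase, was the one target below 1 FPKM, at 0.62 and 0.68 FPKM.

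The detoxifying targets included the aldo-keto reductases and NQO1. AKR1B10, which reduces aldehydes, stood at 1444 and 1472 FPKM, and AKR1C3 at 974 and 938 FPKM. NQO1, which reduces quinones by 2 electrons, stood at 1505 and 1223 FPKM. ALDH3A1, an aldehyde dehydrogenase, stood at 621 and 630 FPKM. Epoxide hydrolase EPHX1 stood at 302 and 339 FPKM and prostaglandin reductase PTGR1 at 343 and 405 FPKM. The lowest after CES1 were CBR3 at 3.83 and 2.75 FPKM and UGT1A6 at 5.37 and 3.65 FPKM, a gene that shares its last exons with the other UGT1A genes.

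In the glutathione and thioredoxin group, MGST1, a microsomal glutathione transferase, was highest by FPKM at 1578 and 1344 FPKM. Its transcript of 298 bases gave 51.8% of that FPKM from 8.4% of the counts, and the transcript of 914 bases, with 87.3% of the counts, stood at 638 and 643 FPKM, which is below GPX2. GPX2, a glutathione peroxidase typical of the gut, stood at 803 and 738 FPKM. TXN and TXNRD1, thioredoxin and its reductase, stood at 760 and 729 FPKM and at 387 and 379 FPKM. The subunits of glutamate-cysteine ligase differed, with the catalytic GCLC at 148 and 174 FPKM and the modifier GCLM at 22.2 and 19.1 FPKM. SLC7A11, which imports cystine, stood at 41.5 and 32.8 FPKM, and GSTM3 was the lowest of the group at 2.89 and 2.01 FPKM.

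All 6 genes for NADPH supply were above 10 FPKM, where 7686 of the 19195 protein-coding genes counted for the lists reached 10 FPKM. PGD, a dehydrogenase of the pentose phosphate pathway, stood at 1505 and 1656 FPKM. TKT and TALDO1, of the non-oxidative branch, stood at 521 and 666 FPKM and at 226.0 and 225.9 FPKM. ME1, malic enzyme, was the lowest at 32.4 and 25.4 FPKM.

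All 9 regulators of the pathway reached 1 FPKM, where 63.1% of protein-coding genes did. NFE2L2 stood at 111 and 149 FPKM and KEAP1 at 16.0 and 16.9 FPKM. SQSTM1, the autophagy adaptor that binds KEAP1, was the highest at 362 and 363 FPKM. MAFF was the lowest at 4.50 and 6.43 FPKM, while MAFG, another partner of NRF2, stood at 15.4 and 16.7 FPKM. These are RNA levels and do not measure KEAP1 or NRF2 protein.

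**Figure D3:**
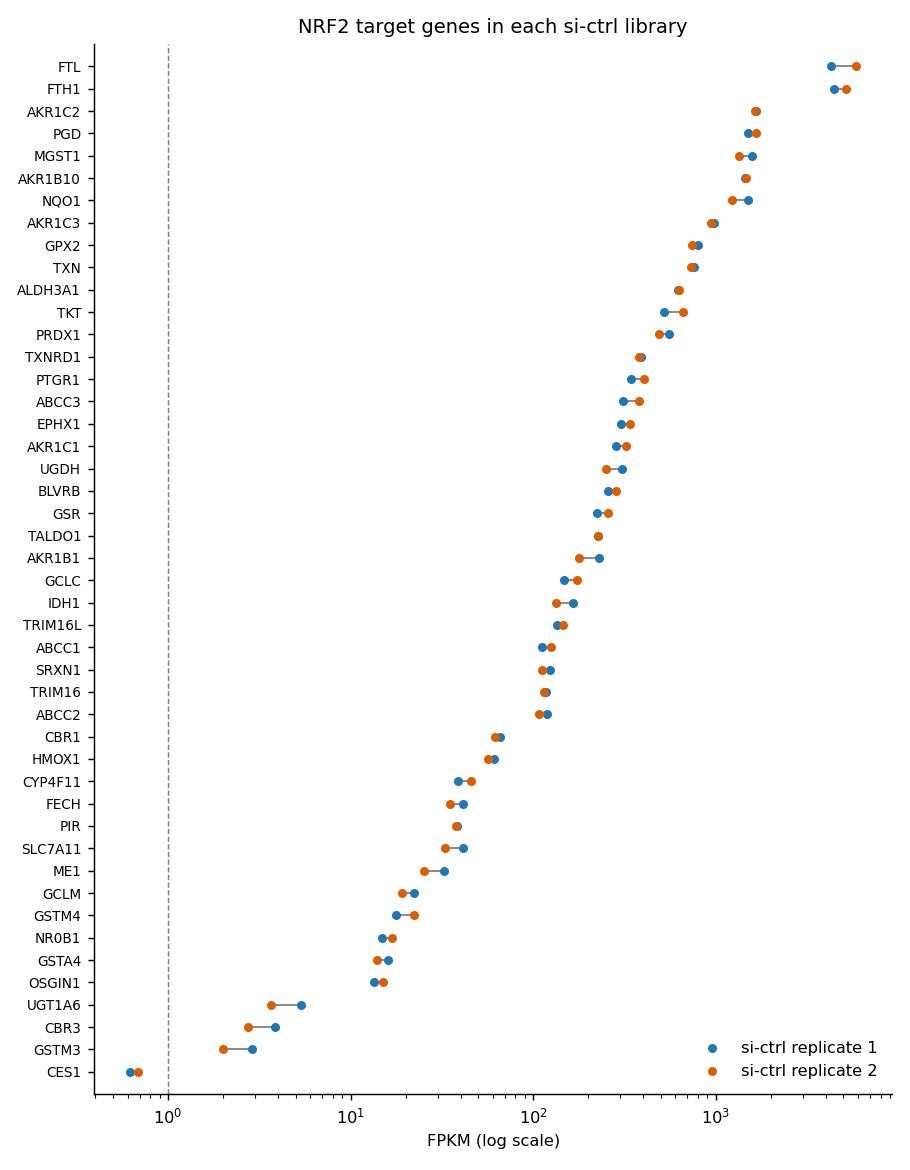
FPKM (x axis, log scale) of the NRF2 targets named on the y axis in si-ctrl replicate 1 and replicate 2, joined by a line. The points of 1 gene lie close together, and CES1 alone lies left of the dashed line at 1 FPKM, at 0.62 and 0.68 FPKM.

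Of the other antioxidant enzymes, 19 of 22 reached 1 FPKM (86.4%), where 63.1% of protein-coding genes did. GSTP1, a cytosolic glutathione transferase, was the highest at 671 and 747 FPKM. The peroxiredoxins PRDX5 and PRDX6 stood at 251.3 and 251.7 FPKM and at 117 and 126 FPKM, and the peroxidase GPX4, which reduces lipid peroxides, at 245 and 293 FPKM. SOD1 stood at 134.4 and 131.5 FPKM and catalase, CAT, at 46.0 and 46.9 FPKM. PRDX2 stood at 0.33 and 0.00 FPKM, and SOD3, the extracellular superoxide dismutase, was listed at 0.

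Of 19 aldehyde dehydrogenases, 16 reached 1 FPKM (84.2%), where 63.1% of protein-coding genes did. After ALDH1A1 and ALDH3A1 came the mitochondrial ALDH2 at 144 and 152 FPKM and the fatty aldehyde dehydrogenase ALDH3A2 at 143 and 127 FPKM. The retinaldehyde dehydrogenases other than ALDH1A1 were much lower, with ALDH1A3 at 11.5 and 7.60 FPKM and ALDH1A2 at 0.54 and 0.02 FPKM. ALDH1L1, ALDH1A2 and ALDH8A1 were the 3 members below 1 FPKM.

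Of 28 glycolytic genes, 22 reached 1 FPKM (78.6%), where 63.1% of protein-coding genes did. After GAPDH the most abundant were PKM at 2310 and 2181 FPKM, LDHA at 2237 and 2083 FPKM, ALDOA at 1838 and 1933 FPKM and GPI at 1082 and 958 FPKM. Among the hexokinases, HK1 stood at 61.6 and 53.7 FPKM and HK2 at 1.46 and 1.6 FPKM. The liver enzyme PKLR stood at 0.05 and 0.11 FPKM, and the germ cell forms GAPDHS, PGK2 and LDHC were listed at 0 in both libraries. The glucose transporter SLC2A1 stood at 53.5 and 65.7 FPKM.

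Epithelial genes were expressed unevenly. Over 51 genes for keratins of simple epithelia, junctions and epithelial regulators, 36 reached 1 FPKM (70.6%), where 63.1% of protein-coding genes did. Besides KRT8 and KRT18, the simple keratin KRT7 was high at 1098 and 1252 FPKM and KRT81, a hair keratin with close paralogs, at 588 and 556 FPKM. KRT19, which is usual in glandular epithelium, stood at 4.18 and 0.76 FPKM. KRT20 had a mean of 0.97 FPKM, at 1.16 and 0.78 FPKM, and of 1.94 FPKM when identical transcripts without a gene identifier were added.

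Of 29 junction genes, 26 reached 1 FPKM (89.7%), where 63.1% of protein-coding genes did. ITGB4, the integrin of hemidesmosomes, was the highest at 176 and 263 FPKM, and E-cadherin, CDH1, stood at 130 and 156 FPKM. The desmosome plaque protein DSP stood at 107 and 111 FPKM and the tight junction scaffold TJP1 at 131 and 112 FPKM. The claudins were led by CLDN2 at 66.8 and 56.4 FPKM and CLDN1 at 48.4 and 62.5 FPKM, whereas CLDN3 stood at 0.32 and 0.38 FPKM and CLDN4 at 1.07 and 0.44 FPKM. EPCAM stood at 18.3 and 15.4 FPKM.

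Of 15 epithelial regulators, 4 reached 1 FPKM (26.7%), where 63.1% of protein-coding genes did. SPINT2, a protease inhibitor, stood at 259 and 229 FPKM and the transcription factor ELF3 at 174 and 242 FPKM. The remaining pair were EHF at 6.54 and 4.00 FPKM and GRHL1 at 1.96 and 1.31 FPKM. GRHL2, a factor that maintains epithelial gene expression, stood at 0.08 and 0.00 FPKM. The splicing regulator ESRP1 stood at 1.05 and 0.40 FPKM, and OVOL1, RAB25 and PRSS8 were listed at 0.

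Mesenchymal genes were present in the same libraries, with 18 of 25 at 1 FPKM or more (72%), which is also near the share of all protein-coding genes. The intermediate filament VIM stood at 567 and 640 FPKM, fibronectin, FN1, at 406 and 358 FPKM, and TGFBI, a matrix protein induced by TGF-beta, at 318 and 393 FPKM. S100A4 stood at 253 and 135 FPKM. Of the transcription factors that repress E-cadherin, TWIST2 stood at 8.16 and 10.3 FPKM and ZEB1 at 9.43 and 11.2 FPKM, while SNAI2 stood at 0.16 and 0.23 FPKM and ZEB2 at 0.25 and 0.37 FPKM. N-cadherin, CDH2, stood at 2.27 and 2.06 FPKM.

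**Figure D4:**
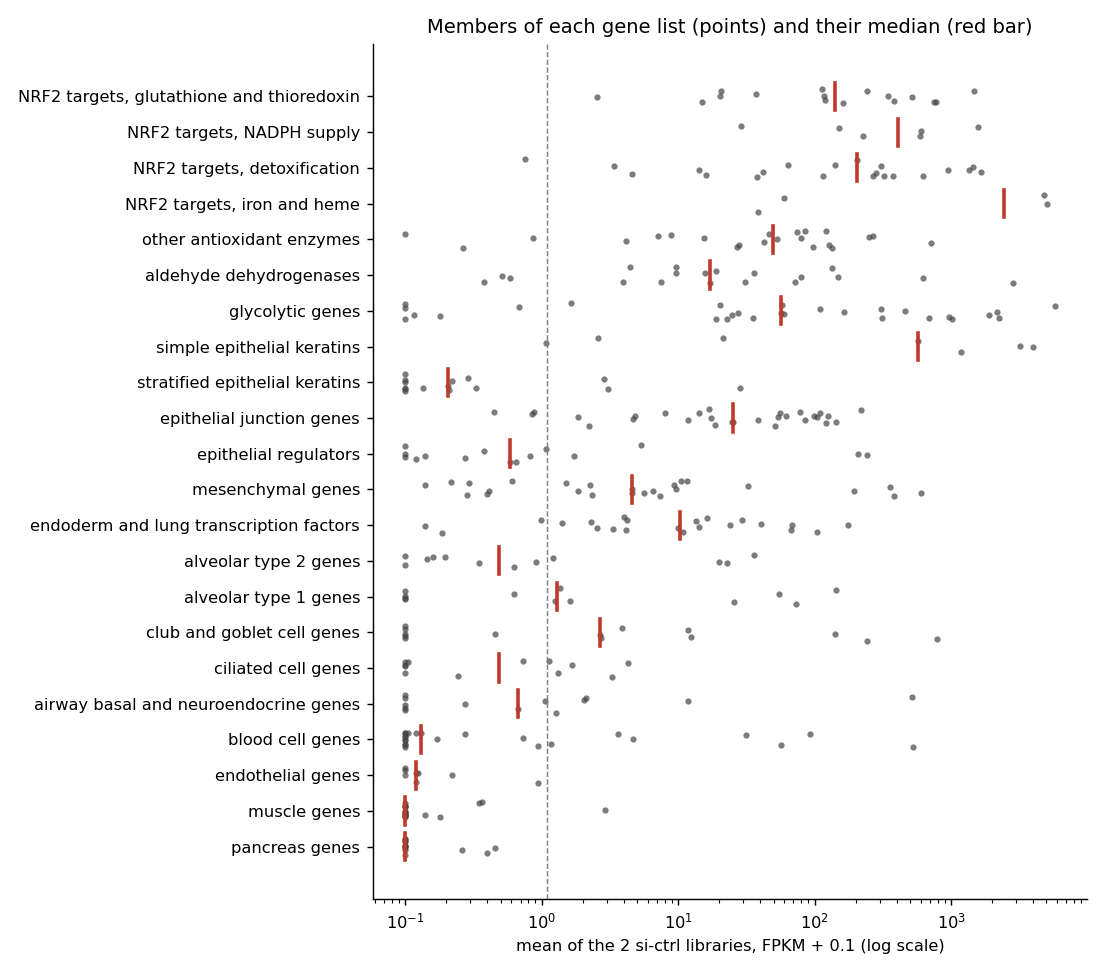
Mean FPKM + 0.1 of the si-ctrl libraries (x axis, log scale) for the members of each gene list (y axis), with points for genes, a red bar for the median of the list and a dashed line at 1 FPKM. The NRF2 target lists lie far to the right, with 46 of 47 targets at 1 FPKM or more, and the endothelial and pancreas lists lie wholly left of the line.

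Genes of the cell types of the lung reached 1 FPKM in 48 of 85 cases (56.5%), near the share of all protein-coding genes. Of the transcription factors of endoderm and lung, 19 of 22 did so (86.4%), where 63.1% of protein-coding genes did. KLF5 was the highest at 163 and 188 FPKM, and ID2, which marks the tips of the developing airway, stood at 96.0 and 113 FPKM. HNF4A, a factor of liver and gut, stood at 34.9 and 45.9 FPKM, and FOXA2 at 9.37 and 11.96 FPKM. NKX2-1, the factor that specifies lung, stood at 0.08 and 0.00 FPKM.

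Of the alveolar type 2 cell genes, 4 of 12 reached a mean of 1 FPKM (33.3%), where 63.1% of protein-coding genes did. The surfactant proteins were low or at 0, with SFTPC at 0.65 and 0.40 FPKM, SFTPB at 0.12 and 0.00 FPKM, SFTPD at 0.16 and 0.34 FPKM, and SFTPA1 and SFTPA2 listed at 0. The genes that reached 1 FPKM serve the handling of surfactant lipid or the lysosome. LPCAT1, which makes surfactant phosphatidylcholine, stood at 37.2 and 34.5 FPKM, the lipid transporter ABCA3 at 20.71 and 19.01 FPKM, the protease CTSH at 25.4 and 19.8 FPKM, and LAMP3 at 1.85 and 0.39 FPKM, so that LAMP3 passed in replicate 1 only. Thus the secreted products that define the type 2 cell were each listed at 0 or below 1 FPKM in these libraries.

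Of the alveolar type 1 genes, 7 of 12 reached 1 FPKM (58.3%), near the 63.1% of protein-coding genes. The caveolae protein CAV1 was highest at 136 and 148 FPKM, and GPRC5A stood at 70.6 and 76.1 FPKM. AQP5, PDPN, HOPX and CLIC5, which define the type 1 cell more narrowly, were listed at 0 in both libraries. AGER stood at 0.35 and 0.70 FPKM.

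Of the club and goblet cell genes, 8 of 14 reached 1 FPKM (57.1%), where 63.1% of protein-coding genes did. AGR2, which folds mucins, stood at 974 and 603 FPKM. The gel-forming mucins MUC5B and MUC5AC stood at 270 and 211 FPKM and at 174 and 107 FPKM, and their driver SPDEF at 12.2 and 12.6 FPKM. SCGB1A1, the defining product of club cells, was listed at 0, as were SCGB3A1, CYP2F1, BPIFA1 and MUC4, while SCGB3A2 stood at 3.23 and 1.92 FPKM and BPIFB1 at 3.32 and 1.91 FPKM. TFF3, a peptide secreted with mucus, stood at 0.71 and 0.00 FPKM. Of the ciliated cell genes, 5 of 12 reached 1 FPKM (41.7%). The highest was CCDC78 at 4.38 and 4.05 FPKM, and FOXJ1, DNAI2 and TEKT1 were listed at 0. Of the basal and neuroendocrine genes, 5 of 13 reached 1 FPKM (38.5%). UCHL1, a deubiquitinase abundant in neurons, stood at 484 and 547 FPKM, the granule protein CHGB at 14.4 and 9.04 FPKM and the vesicle protein SYP at 2.0 and 1.99 FPKM, while the neuroendocrine factors INSM1 and NEUROD1 were listed at 0.

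Of the genes of secreted plasma proteins, 26 of 32 reached 1 FPKM (81.2%), where 63.1% of protein-coding genes did. The fibrinogen chains FGB, FGG and FGA stood at 465 and 400 FPKM, 271 and 212 FPKM, and 169 and 131 FPKM. Complement C3 stood at 197 and 166 FPKM and the coagulation inhibitor TFPI at 180 and 209 FPKM. Albumin, ALB, stood at 0.98 and 1.02 FPKM, and APOB, the lowest, at 0.10 and 0.02 FPKM.

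Of the genes altered in lung adenocarcinoma, 18 of 22 reached 1 FPKM (81.8%), where 63.1% of protein-coding genes did. The receptor MET was the highest at 146 and 164 FPKM, EGFR stood at 58.1 and 73.7 FPKM and ERBB3 at 84.7 and 107 FPKM. The chromatin remodeller SMARCA4 stood at 6.81 and 6.51 FPKM, and the receptor kinase ALK at 0.01 and 0.00 FPKM.

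On chromosome 9p21, a segment often lost in cancers, the levels of neighbouring genes differed. CDKN2A (hg19 chromosome 9, 21967751 to 21995300) and CDKN2B (22002902 to 22009304), which encode inhibitors of the cell cycle kinases, had 0 counts in both libraries. A count of 0 allows up to 3 counts, or 0.294 and 0.281 FPKM for a transcript of 1000 bases, whose effective length was 749 and 748 bases, and these limits cover counting error only. MTAP (21802635 to 21937650), next to CDKN2A, stood at 3.80 and 5.70 FPKM. Most of that FPKM came from few counts in short transcripts. MTAP-202, of 753 bases, had 17.6 and 17.3 counts, and MTAP-206, of 578 bases, had 1 and 14 counts. MLLT3 and FOCAD, further along the arm, stood at 20.1 and 25.2 FPKM and at 23.9 and 37.0 FPKM. All 12 proliferation genes were above 10 FPKM, where 7686 of the 19195 protein-coding genes counted for the lists reached 10 FPKM. PCNA stood at 299 and 206 FPKM and MKI67 at 64.6 and 66.3 FPKM.

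Genes on the lists of other lineages, which include keratins of stratified epithelia, were mostly silent. These lists were written with earlier results of these data known, so the counts are a description only. Of 167 genes on them, 36 reached 1 FPKM (21.6%), where 63.1% of protein-coding genes did. In both libraries 72 were listed at 0, where 19% of protein-coding genes were. No member reached a mean of 1 FPKM among 8 endothelial genes, 13 pancreas genes, 379 olfactory receptors and 108 keratin-associated proteins, although in replicate 2 alone ESAM of the endothelial list stood at 1.03 FPKM and the receptors OR1F1 and OR1J4 at 1.22 and 1.02 FPKM. Among 17 muscle genes the one above it was TNNI3 at 2.64 and 3.02 FPKM. The leukocyte genes PTPRC, CD3D, CD3E and CSF1R were listed at 0.

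HBB, the beta chain of haemoglobin, was the highest gene of this class at 542 and 515 FPKM. Most of that level came from a retained-intron transcript of 319 bases, HBB-203, at 474 and 449 FPKM from 466 and 456 counts, while the coding transcript HBB-201 stood at 67.6 and 66.2 FPKM from 347 and 355 counts. HBA1 stood at 89.2 and 94.8 FPKM and HBA2 at 55.6 and 58.5 FPKM, and these genes encode the same protein and share reads. Among the other blood cell genes, CD68, a lysosomal glycoprotein of macrophages, stood at 34.6 and 27.8 FPKM, CD14 at 4.31 and 4.77 FPKM, ITGAM at 2.63 and 4.39 FPKM and ELANE at 1.1 and 1.05 FPKM.

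The genes of epithelial or secretory tissues outside the lung that were expressed included the gut genes CDH17, a cadherin, at 41.5 and 37.1 FPKM and VIL1, which bundles actin in microvilli, at 37.5 and 36.5 FPKM. CDX1, SI and FABP2, of the same list, were listed at 0. Of the kidney genes, WT1 stood at 3.91 and 2.40 FPKM, PAX8 at 3.5 and 3.19 FPKM, PAX2 at 2.69 and 3.02 FPKM and NPHS1 at 2.86 and 2.61 FPKM. Of the hepatocyte genes, F2 stood at 4.44 and 3.42 FPKM, AHSG at 2.71 and 2.58 FPKM, CYP2E1 at 0.86 and 1.18 FPKM, and ALB as above.

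Of 21 genes of neurons and glia, 7 reached 1 FPKM (33.3%), where 63.1% of protein-coding genes did. The synaptic vesicle genes SNAP25 and SYT1 stood at 31.5 and 36.9 FPKM and at 24.9 and 18.3 FPKM. MBP stood at 15.7 and 14.0 FPKM, RBFOX3 at 7.02 and 6.10 FPKM, MAP2 at 4.10 and 4.12 FPKM, SLC17A7 at 2.13 and 2.22 FPKM and GAD1 at 0.70 and 1.74 FPKM. STMN2, GAD2 and OLIG2 were listed at 0.

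The remaining members at 1 FPKM or more came from the lists of stratified keratins, skin, connective tissue and the germ line. KRT10 stood at 30.6 and 26.3 FPKM, KRT4 at 2.85 and 2.70 FPKM and KRT15 at 2.56 and 3.32 FPKM, whereas KRT1, KRT13 and KRT14 were listed at 0. MITF stood at 9.92 and 9.49 FPKM and PMEL at 2.47 and 2.33 FPKM. COL1A1 stood at 6.2 and 6.65 FPKM, LUM at 4.37 and 1.76 FPKM and COL3A1 at 0.98 and 1.82 FPKM. The egg coat gene ZP3 stood at 16.8 and 15.8 FPKM, LIN28B at 4.42 and 3.23 FPKM and POU5F1 at 1.55 and 1.49 FPKM.

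The HOX clusters, whose genes mark position along the body axis, differed in their counts. In HOXA 9 of 11 genes reached 1 FPKM (81.8%), in HOXB 8 of 10 (80%), in HOXC 6 of 9 (66.7%) and in HOXD 1 of 9 (11.1%). Of protein-coding genes 63.1% did, and HOXC lies near that share. The clusters are small, and in replicate 2 alone 7 genes of HOXB and 5 of HOXC reached 1 FPKM. HOXA3 was the highest at 32.7 and 39.6 FPKM, and HOXD8, the one in its cluster, stood at 7.52 and 6.58 FPKM. Of 44 cancer-testis genes of the MAGE, GAGE and SSX families, only MAGEA6 reached 1 FPKM (2.27%), at 19.1 and 19.8 FPKM. MAGEA3 stood at 0.29 and 0.28 FPKM, and the division of any shared reads between these genes was not tested.

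The expression of most genes was spread over several isoforms. Of the genes at 1 FPKM or more, 1238 had 1 listed transcript and 11985 had more, with a median of 8. Over the latter, the leading isoform held a median of 55.7% of the FPKM of the gene (quartiles 41.2% and 76.2%). In 1533 genes (12.8%) 1 isoform carried 90% or more of the FPKM, a number that was 2722 (22.7%) by expected counts. By FPKM, 2913 genes needed 2 isoforms to reach 90%, 2615 needed 3 and 1847 needed 6 or more, up to 21. The leading isoform was the same in both libraries in 9426 genes (78.6%).

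The share of the leading isoform fell with the number of transcripts listed. Its median was 80.5% in genes with 2 to 4 listed transcripts, 58.2% with 5 to 9, 44.5% with 10 to 19 and 33.4% with 20 or more. The share is thus to be read beside the number of transcripts that the annotation lists. The share also depends on the unit, since counts favour long transcripts and FPKM favours short ones. By counts the leading isoform was another one in 3092 genes, necessarily a longer one, since FPKM is a count divided by effective length. Leading isoforms under 1000 bases made up 25.1% by FPKM and 8.4% by counts.

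**Figure D5:**
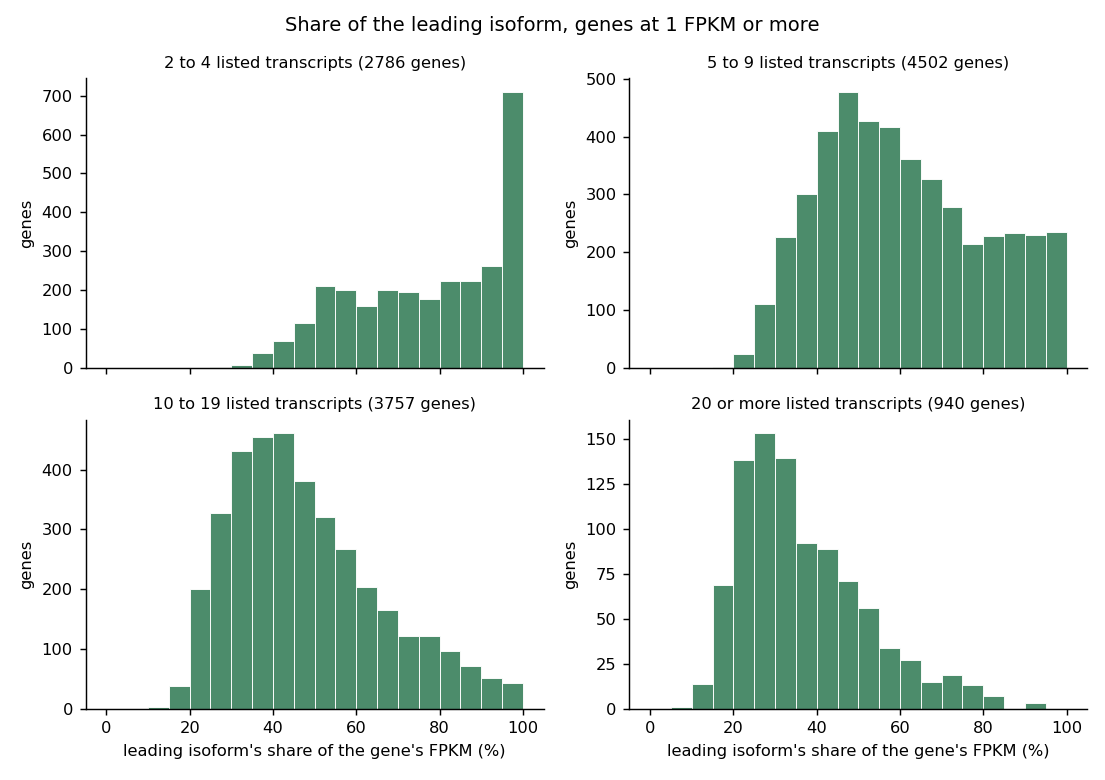
Number of genes (y axis) by the share of their FPKM held by the leading isoform (x axis, percent, bins of 5 percentage points) for genes at 1 FPKM or more, in 4 panels by the number of listed transcripts. The median share moves from 80.5% with 2 to 4 listed transcripts to 33.4% with 20 or more.

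The marker genes were each led by 1 isoform. ALDH1A1-201 held 99.3% of the FPKM of ALDH1A1, at 2965 and 2677 FPKM, out of 7 listed transcripts. KRT18-202 held 87.4% of KRT18, and KRT8-201 held 77.8% of KRT8 at 2464 and 2534 FPKM, with retained-intron transcripts next. ENST00000407674, which has no name in the annotation used here, held 75.1% of AKR1C2. Among redox genes, AKR1B10-201 held 94.9% and GPX2-201 held 96.7%, whereas the leading isoform of TXNRD1 held 23.4% and 8 of its 28 listed transcripts were needed to reach 90%. PKM-202 held 92.6% of the pyruvate kinase gene PKM.

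At 50 FPKM or more, 805 of 2074 genes with more than 1 listed transcript had a leading isoform under 50% (38.8%). The 10 most abundant of these were RPS3, NQO1, RPS23, CANX, RACK1, HSPA8, RPL27A, AGR2, RPL38 and ASPH. NQO1-206, of 892 bases, led NQO1 with 40.7% of its FPKM, at 618 and 493 FPKM, whereas the longer NQO1-203, of 2527 bases, led by counts with 31.9%. HSPA8-220, of 465 bases, held 45.6% of the FPKM of the chaperone gene HSPA8 but 9.11% of its counts. ASPH needed 12 isoforms to reach 90%. CANX, the calnexin gene, was led by a transcript of 2222 bases with 25.1% by FPKM and by CANX-201 with 51.6% by counts.

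Other genes at 50 FPKM or more were carried by 1 isoform at 95% or more, among them 104 with at least 5 listed transcripts. This cut and this minimum differ from those of the 805 genes, so the numbers are not to be compared. Over all 11985 genes at 1 FPKM or more with more than 1 listed transcript, 987 reached 95%. Among the 10 most abundant of the 104 were the ribosomal protein genes RPS16, RPL26, RPS20, RPL30, RPL35 and RPL19, and ALDH1A1. VIM-201 held 98.3% of VIM.

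Leading isoforms were not always coding transcripts. Of the 11134 leading isoforms with a type in the annotation, 9001 were protein coding (80.8%), 747 retained an intron, 688 had no defined coding sequence and 376 were of the nonsense-mediated decay class. FTH1 was led by the retained-intron transcript FTH1-211 with 83.9% by FPKM and 80.9% by counts. B2M was led by B2M-209, of the nonsense-mediated decay class, with 84.6% by FPKM and 80.6% by counts. A transcript without a defined coding sequence led CDH1 at 58.4 and 67.7 FPKM, while CDH1-201, which is coding, stood at 48.8 and 52.2 FPKM and led by counts with 55.7%. These shares are estimates from short reads and no transcript was observed whole.

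Part of the expression lay outside the gene sums. Transcripts without a gene identifier, 16723 of 180253, held 3.18% and 3.17% of the counts. Of these, 1279 had the same length and the same values in both libraries as a transcript of a named gene, for 464 genes, and are called copies here. With the copies added, the mean of ACTG1 went from 4915 to 9828 FPKM, above the 5769 FPKM of GAPDH. However, ACTG1-201, of 471 bases, gave 75.9% of the FPKM of ACTG1 from 29.9% of its counts. Without the copies ACTG1 had 33195 and 43370 counts, against 81505 and 99206 for GAPDH. The order of these genes by FPKM thus depends on a short transcript. With the copies, TPI1 went from 686 to 1372 FPKM, TKT from 594 to 1187 FPKM and AKR1C1 from 305 to 610 FPKM. In all 400 genes were at least 1.5-fold higher with them, so the levels of these genes depend on whether the copies are counted. None of KRT8, KRT18 and ALDH1A1 had such a copy, and AKR1C2 stood at 1750 FPKM with them in place of 1659 FPKM.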

How the data were processed

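RNA from A549 cells was sequenced by the authors as paired reads, and the submitters' processing notes name Trimmomatic 0.30, HISAT2 2.0.1, HTSeq 0.6.1, DESeq and the build hg19. The tool that estimated counts is not given in the sources used here. The authors deposited 1 expected count and 1 FPKM value per transcript and library, and FPKM was normalized by them for effective length and depth. The deposited tables were joined by transcript, since 1 of them alone holds gene identifiers, and si-ctrl values were the same in both (721012 of 721012).

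FPKM and expected counts were summed per gene identifier with Python 3.11.15, pandas 2.3.3 and numpy 2.4.6. Identifiers were named from a gene table (33692) or from transcripts of GENCODE v44lift37 (135), and 1130 stayed unnamed. That release, later than the one behind the files, gave loci and types (151453 of 180253 transcripts), so some names and types are missing. SOD2, PECAM1, NEFL and 24 long noncoding RNAs of the lists were not analysed here, and some members and named genes are not reported here. The libraries were not tested against each other, and log2(FPKM + 0.1) served for ratios. TMM (edgeR 4.0.16) and DESeq2 1.42.0 size factors, in R 4.3.3, were used in alternatives. Scripts were tested on simulated data.

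The marker genes and the gene lists were chosen with earlier results of these data known. Genes named are the 30 most abundant outside 3 families, the highest and lowest members of each list, silent-lineage members at 1 FPKM or more, 10 split and 10 single-isoform genes, and the 10 furthest apart. Further members, and those said to be, were chosen after their values were seen.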

Additional observations from a re-analysis of the deposited data

Results flagged for a closer look

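Transcripts without a gene identifier, which the gene sums leave out, held 3.18% of the expected counts in replicate 1 and 3.17% in replicate 2. They were singled out because they carry signal outside the main measurement. The most abundant was ENST00000593414, of 471 bases, with the length and the values of ACTG1-201, at 3339 and 4123 FPKM. With 2 libraries, no search for a library far from its group was possible.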

How the results depend on the processing

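The 54 recomputed counts of genes at 1 FPKM or more, over all genes and the 5 classes of lists, stayed within 1.5 times the reported count. The share of the 100 most abundant genes was 39.9% of the FPKM on average, 22.6% by expected counts and 28.5% without the mitochondrially encoded genes, and 36.9% to 42.8% in single libraries. The median share of the leading isoform, 55.7%, was 68.9% by counts, 54.5% at 5 FPKM or more, 54% at 20 FPKM or more, 59.3% with transcripts at 0.1 FPKM or more in both libraries, and 56.9% to 57.1% in single libraries. Genes carried by 1 isoform, 1533, numbered 2722 by counts, 616 at 20 FPKM or more, 2613 at 80% and 987 at 95%. Genes over 2-fold apart, 635, numbered 366 with a pseudocount of 1, 198 at 5 FPKM or more and 165 at 100 counts or more, the last chosen after the data were seen. Adding the copies without a gene identifier and requiring 10 counts were also chosen then. Counts of genes at low level are limited by depth: 345 of the genes at 1 FPKM or more had a mean under 10 counts. No paired analysis was possible because 1 group was described and no groups were compared.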

Other observations

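In the beta-defensin family, DEFB1, an antimicrobial peptide of epithelia, was the one gene of 56 at 1 FPKM or more, at 46.9 and 72.7 FPKM. Of 27 bitter and other taste receptors, 3 reached 1 FPKM, namely TAS2R4 at 2.96 and 3.5 FPKM, TAS2R3 at 1.73 and 2.97 FPKM and TAS2R5 at 1.06 and 2.58 FPKM. Among 55 cytochrome P450 genes, 17 reached 1 FPKM (30.9%), and after CYP24A1 came CYP2S1 at 116 and 149 FPKM. Over all protein-coding genes 63.1% reached 1 FPKM.

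The gene sum in FPKM can move while the counts do not. TTLL7 had 191 and 200 counts but stood at 27.6 and 4.34 FPKM, and PNRC2 had 663 and 600 counts and stood at 120.0 and 20.2 FPKM. Transcripts under 300 bases held 6.59% and 9.56% of all FPKM from 0.0706% and 0.0964% of the counts.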
